A study of Mus musculus with 20 samples.

Results

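The nuclear genes of the mitochondrial respiratory chain were followed across 20 mouse brain libraries. The members were all genes of the deposited table whose symbols begin with Ndufa, Ndufb, Ndufc, Ndufs or Ndufv (complex I), Sdha to Sdhd (complex II), Uqcr (complex III), Cox4 to Cox8 (complex IV) or Atp5 (complex V), with pseudogene and related-sequence symbols left out. These were 94 of 23845 genes, of which 45 fell in complex I, 6 in complex II, 8 in complex III, 18 in complex IV and 17 in complex V. By textbook role 75 of them encode subunits, 11 encode assembly factors or other proteins that share the prefix (such as Ndufaf1 and Sdhaf2), and 8 are forms known mainly from muscle, testis or other particular tissues or conditions (Ndufa4l2, Cox4i2, Cox6a2, Cox6b2, Cox7a1, Cox7b2, Cox8b and Cox8c). Ndufa4 is listed under complex I by its name, although its protein is now assigned to complex IV.

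Complexes I to IV pass electrons from NADH and succinate to oxygen. Of these, complexes I, III and IV pump protons across the inner mitochondrial membrane. Complex V, the ATP synthase, uses the proton gradient to make ATP. Neurons draw most of their ATP from this chain to restore ion gradients after firing. Most subunits are encoded in the nucleus and the remainder, including the catalytic centre of complex IV, in mitochondrial DNA. The mitochondrially encoded genes were not analysed here.

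The study characterised mice with knockouts of single isoforms and control mice, kept on a normal diet, and its title names a JNK isoform. JNK1 and JNK2 are stress-activated kinases encoded by Mapk8 and Mapk9, whose transcripts carry either of a pair of alternative exons, 7a or 7b. The 7 labelled genotypes, all of strain C57/Bl6J, were Wild type (3 libraries), J1 lf/lf (3), J2 lf/lf (3), J17a (3), J17b (2), J27a (3) and J27b (3). The codes are not spelled out in the labels, nor are the promoter or cells of any recombinase, the age of the mice, or whether each library is a different animal, so a p-value here reflects only how far these samples spread, which may be technical. RNA was taken from whole brain tissue as labelled, and a lower value in such bulk samples cannot be told apart between fewer cells of a type and less RNA per cell.

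The targeted genes were checked first. Mapk8 was lower in J17b, with 76.9 ± 3.21 CPM (estimated counts scaled by library size; SD, n = 2) against 122 ± 16.2 CPM for Wild type (n = 3). Mapk9 was lower in J2 lf/lf, with 136 ± 67.1 CPM against 319 ± 36.3 CPM for Wild type (SD, n = 3 for both). In J1 lf/lf, J17a, J27a and J27b the library ranges of both genes overlapped those of Wild type, except Mapk9 in J27b at 274 to 278 CPM against 293 to 360 CPM, and gene totals do not show which exon was used. Totals of 21395041 to 33828755 estimated counts per library lay behind each value. Markers of the labelled tissue were present, with neuronal markers summing to 6484 to 7461 CPM and oligodendrocyte markers to 5158 to 7735 CPM. Rn45s, the ribosomal RNA precursor, stood at 3066 to 6718 CPM in the 10 libraries whose titles are numbered up to 10 and at 17321 to 54698 CPM in the 10 numbered above 10, a split that holds all Wild type, J1 lf/lf and J2 lf/lf libraries on the low side and all J17b, J27a and J27b libraries on the high side. For J17b, J27a and J27b against Wild type the title number and the genotype cannot be told apart other than through J17a, whose libraries lie on both sides. With title number above 10 as a term in the fit, 0 members were called in every comparison, as without it. That term is set by the J17a libraries alone, so this result cannot show whether the split matters. Wild type replicate 3 stood apart from the other libraries in the members, with a spread of deviations of 0.42 against at most 0.25. The called members, positive members and medians against Wild type are therefore given with and without it. Values of single members are given without it in some cases only.

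The respiratory chain genes were among the most abundant transcripts of these brains. Levels were read in TPM (an abundance per transcript length in which every library has the same total). The 94 members took up 4.27% to 5.13% of all TPM, with a median over libraries of 4.845%. Of the 100 genes with the highest mean TPM, 11 were members, and 73 members had a mean of at least 100 TPM, against a median of 18.2 TPM over the 16063 genes that passed the filter on low counts. The ubiquitous complex IV subunits led. Cox8a, a small membrane subunit of cytochrome c oxidase, stood at 2389 ± 155 TPM (SD, n = 20 here and for the levels that follow), with a range of 1955 to 2699 TPM. Cox6a1 stood at 2345 ± 234 TPM, Cox6c at 2055 ± 200 TPM and Cox4i1, a regulatory subunit that binds adenine nucleotides, at 1995 ± 81.2 TPM. The library ranges of these 4 genes overlapped, and their order within each library was not compared. Cox5a (626 ± 52.8 TPM) and Cox5b (906 ± 94.4 TPM) lay lower, and the lowest ubiquitous complex IV subunits were Cox7a2l, a supercomplex assembly protein, at 318 ± 12.4 TPM and Cox7b at 258 ± 19.1 TPM.

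The complexes differed in the level of a typical subunit. The median subunit level was 1260 TPM in complex IV (11 ubiquitous subunits), 773 TPM in complex V (15), 560 TPM in complex III (8), 287 TPM in complex I (37) and 256 TPM in complex II (4). Complexes I, IV and V each made up a similar share of the summed TPM of the members, at 31.1%, 29.6% and 27.2%, while complex III made up 9.68% and complex II 2.39%. In complex V the highest was Atp5b, the catalytic beta subunit of the F1 part, at 1732 ± 53.8 TPM. The alpha subunit gene Atp5a1, whose protein alternates with beta in the F1 ring, stood at 987 ± 27.6 TPM, and the 20 libraries of the pair do not overlap (926 to 1048 against 1641 to 1886 TPM). Atp5f1, the b subunit of the stalk, was the lowest of the 15 at 362 ± 16 TPM. The 3 genes for the identical mature c subunit of the membrane ring were all used, with Atp5g3 giving 46.8% ± 2.39 of their summed TPM, Atp5g2 27.9% ± 1.7 and Atp5g1 25.3% ± 2.44 (SD, n = 20).

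In complex III the small subunits Uqcrq (888 ± 79.4 TPM) and Uqcrh, the hinge protein (830 ± 91.3 TPM), were the highest. The Rieske iron-sulphur protein gene Uqcrfs1 (258 ± 16 TPM) and the core protein gene Uqcrc2 (266 ± 21.2 TPM) were the lowest and overlapped, and Uqcrc2 is uncertain because its estimated counts were not whole in 20% of libraries, which means that some of its reads were shared with another gene. The 4 complex II subunits followed the order Sdha (the flavoprotein, 411 ± 17.3 TPM), Sdhb (the iron-sulphur protein, 288 ± 17.3 TPM), Sdhc (224 ± 9.25 TPM) and Sdhd (142 ± 12.5 TPM), the last 2 being the membrane anchors, and no library range of 1 overlapped that of the next. The ranges were 391 to 473, 261 to 328, 207 to 239 and 112 to 157 TPM.

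Within complex I the 7 nuclear core subunits, which carry the flavin and iron-sulphur centres or bind near the quinone, had a median of 237 TPM with a range of 166 (Ndufs1) to 434 TPM (Ndufs7). The highest members listed there in TPM were Ndufa4 at 1677 ± 118 TPM (127 to 168 CPM) and Ndufa3, an accessory subunit, at 1112 ± 205 TPM (15.1 to 33 CPM). By TPM Ndufa11, a membrane-arm accessory subunit, was the lowest subunit of the whole set at 63.8 ± 3.71 TPM. It was followed by Ndufs4 at 82.5 ± 5.69 TPM, an accessory subunit whose loss in mice gives a Leigh-like encephalopathy. In CPM, which are not per length, Ndufa11 at 57.6 to 70.9 CPM lay above Ndufa3, the reverse of their order in TPM. How far the length given to each gene sets these ranks was not tested. The 7 complex I assembly factors lay below every subunit in mean TPM, from Ndufaf6 at 12.8 ± 2.12 TPM to Ndufaf3 at 60.6 ± 4.73 TPM. The 11 members that are not subunits had a median of 29.5 TPM. Ndufs5 and Cox7c had estimated counts that were not whole in 100% of libraries and Ndufa13 in 45%, so their levels (782, 1430 and 162 TPM) are uncertain.

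**Figure D1:**
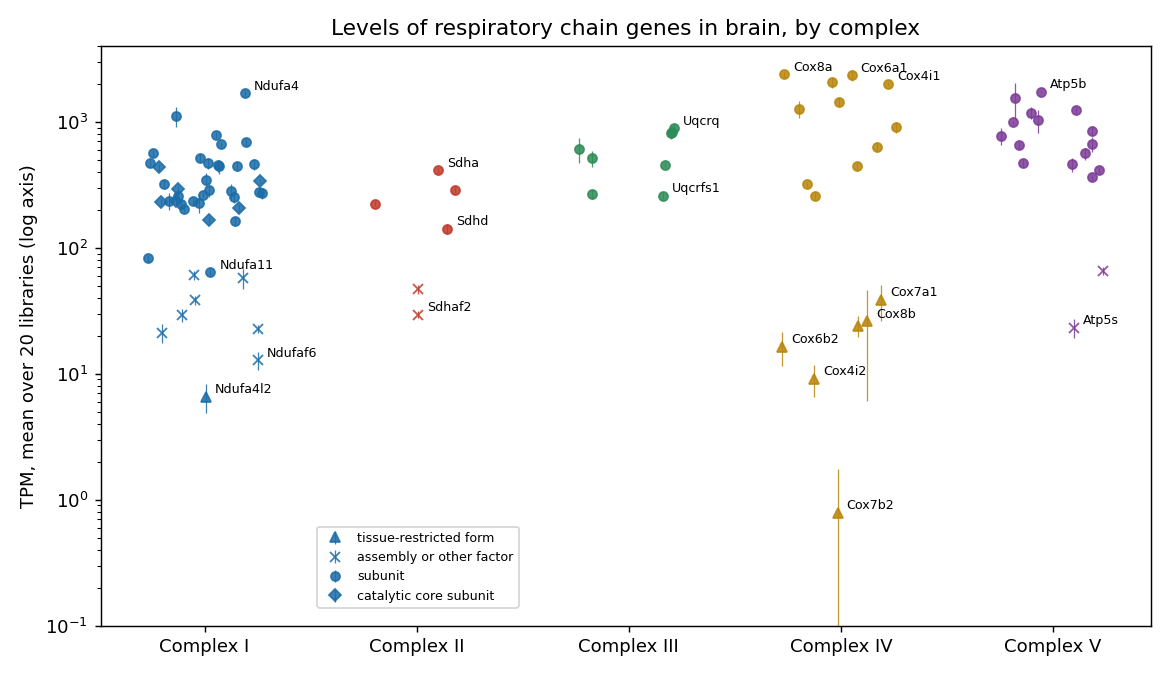
Mean TPM over 20 libraries of each respiratory chain gene by complex on a log axis, with bars for the SD; marker shapes separate core complex I subunits, other subunits, assembly or other factors and tissue-restricted forms. Ubiquitous complex IV subunits reach 2389 TPM, the tissue-restricted forms lie at or below 38.5 TPM, Cox8c is at 0 and cannot be drawn, and the lower bar of Cox7b2 runs off the axis because its SD exceeds its mean.

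Each tissue-restricted form was far below its ubiquitous partner in 20 of 20 libraries. Cox8b, the heart and muscle form of subunit 8, stood at 26 ± 19.9 TPM and made up 1.07% ± 0.808 of the Cox8a plus Cox8b level, with a range of 0.186% to 3.23%. Cox6a2, the heart and muscle form of subunit 6a, made up 1.02% ± 0.154 beside Cox6a1, and the testis form Cox6b2 1.32% ± 0.475 beside Cox6b1. Cox4i2, known from lung and from the response to low oxygen, made up 0.453% ± 0.127 beside Cox4i1, and Ndufa4l2, a target of hypoxia-inducible factor, 0.393% ± 0.103 beside Ndufa4. The heart and muscle form Cox7a1 reached the largest share, 7.91% ± 2.24 beside Cox7a2 (SD, n = 20 for all). Cox7b2 (0.79 ± 0.958 TPM) did not pass the filter and Cox8c was listed at 0 in every library. Markers of heart muscle summed to 5.84 to 10.9 CPM per library and those of testis to 0 to 0.122 CPM. Skeletal muscle markers summed to 5.7 to 9.86 CPM in 19 libraries and 30.3 CPM in J27a replicate 2, in which Cox6a2 (22.3 TPM) and Cox7a1 (51.4 TPM) lay inside the range of the other libraries.

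Cox8b varied most between libraries among the 92 tested members, with a coefficient of variation of 76.7% in TPM. It rested on 3 to 59 estimated counts per library. In CPM it was 0.119, 0.296 and 0.375 in the Wild type libraries, 0.231, 0.268 and 1.62 in J1 lf/lf, 0.248, 0.991 and 1.48 in J2 lf/lf, and 0.274, 0.515 and 0.565 in J17a. It was 0.397 and 1.08 CPM in J17b, 0.215, 0.853 and 1.06 in J27a, and 0.846, 0.971 and 1.94 in J27b. Low and high libraries thus occurred side by side in J1 lf/lf, J2 lf/lf, J17b and J27a. The summed choroid plexus markers were 1337, 1863, 1567 and 1488 CPM in J1 lf/lf replicate 3, J2 lf/lf replicate 1, J17b replicate 2 and J27b replicate 1, where Cox8b was at 1.62, 1.48, 1.08 and 1.94 CPM, but 467 and 472 CPM in J27a replicates 2 and 3, where Cox8b was at 1.06 and 0.853 CPM. Their part in the Cox8b level was not tested.

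The promoters of the ubiquitous and the tissue-restricted forms are shown because their levels differ so widely. RefSeq promoter windows (GRCm38.p6, 250 bases before to 50 bases after each start, 300 in all) were found for 78 of the 94 members. The 64 ubiquitous subunits among them had 69 windows, and 4 tissue-restricted forms had 1 each. Both strands were searched for NRF1 (GCGCA and GCGC with 1 base of any kind between them), ETS (CCGGAAG), YY1 (AAGATGGC), CCAAT and TATAAA, the first 3 being letters bound by factors known to drive respiratory genes. An ETS and a YY1 match can share the letters AAG. The NRF1 letters were in 18 of 69 subunit windows (26.1%) against 4.6% of all 32851 windows, ETS in 16 (23.2% against 8.86%) and YY1 in 10 (14.5% against 2.75%). NRF1 or ETS was in 43.5% of subunit windows and 12.6% of all windows. CCAAT was in 27 (39.1% against 37.4%) and TATAAA in 6 (8.7% against 13.6%). None of NRF1, ETS or YY1 was in the 4 windows of tissue-restricted forms, of which 3 held CCAAT and 2 TATAAA. The median number of CG pairs was 19 in subunit windows, 8.5 in tissue-restricted windows (2 to 10) and 7 in all windows. The stretches below run 5′ to 3′ from 200 to 51 bases before the start, on the minus strand, and capitals mark NRF1 letters in Cox6a1, ETS letters in Atp5e, and CCAAT on either strand in Cox6a1, Cox6b1, Cox8a and Atp5e. A match is a description of letters, not of binding. The stretches are Cox6a1 (chr5:115349009-115349158), Cox6b1 (chr7:30626165-30626314), Cox6b2 (chr7:4753145-4753294), Cox8a (chr19:7217667-7217816), Cox8b (chr7:140900497-140900646) and Atp5e (chr2:174464152-174464301).
Cox6a1: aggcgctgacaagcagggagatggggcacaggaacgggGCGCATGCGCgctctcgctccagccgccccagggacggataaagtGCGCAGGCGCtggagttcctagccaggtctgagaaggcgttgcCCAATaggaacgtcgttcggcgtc
Cox6b1: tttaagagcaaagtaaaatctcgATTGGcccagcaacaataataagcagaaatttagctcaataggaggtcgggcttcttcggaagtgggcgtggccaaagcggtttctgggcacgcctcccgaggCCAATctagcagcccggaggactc
Cox6b2: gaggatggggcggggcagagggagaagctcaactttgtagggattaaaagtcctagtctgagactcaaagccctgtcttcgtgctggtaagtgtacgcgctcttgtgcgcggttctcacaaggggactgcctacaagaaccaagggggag
Cox8a: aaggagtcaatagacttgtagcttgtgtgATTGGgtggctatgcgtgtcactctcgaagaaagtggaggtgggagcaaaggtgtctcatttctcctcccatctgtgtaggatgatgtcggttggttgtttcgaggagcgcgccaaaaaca
Cox8b: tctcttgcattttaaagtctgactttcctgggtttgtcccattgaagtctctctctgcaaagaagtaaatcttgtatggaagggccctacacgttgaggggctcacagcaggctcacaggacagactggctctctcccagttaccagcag
Atp5e: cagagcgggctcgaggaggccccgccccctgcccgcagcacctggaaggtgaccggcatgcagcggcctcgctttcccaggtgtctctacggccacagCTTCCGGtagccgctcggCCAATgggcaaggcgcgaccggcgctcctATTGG
The Cox6a1 stretch holds the NRF1 letters in 2 places and its window 32 CG pairs, whereas the Cox8b and Cox6b2 stretches hold none of the marked letters and their windows 2 and 10 CG pairs. Over the full 300 bases the Cox6b2 window holds CCAAT in 3 places and the Cox8b window TATAAA in 1. The Cox8a and Cox6b1 windows hold ETS letters in 2 places and 1 place, outside the stretches shown.

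The members' levels were steady between libraries. The summed TPM was 14887 ± 671 for complex I, 1141 ± 30.2 for complex II, 4630 ± 292 for complex III, 14144 ± 648 for complex IV and 13007 ± 824 for complex V (SD, n = 20). The median coefficient of variation of TPM over all libraries was 8.32% for the 92 members that passed the filter and 12.1% for all 16063 genes. Abundance differs between those sets, and among genes of at least 100 TPM it was 7.76% for 73 members and 7.41% for 2060 genes. The highest and lowest summed values of the members, 51310 and 42709 TPM, were those of J2 lf/lf replicate 3 and Wild type replicate 3. As a share of estimated counts these libraries held 0.968% and 0.935%. By that measure J2 lf/lf replicate 1 was the highest at 1.03% and J17b replicate 2 the lowest at 0.868%.

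**Figure D2:**
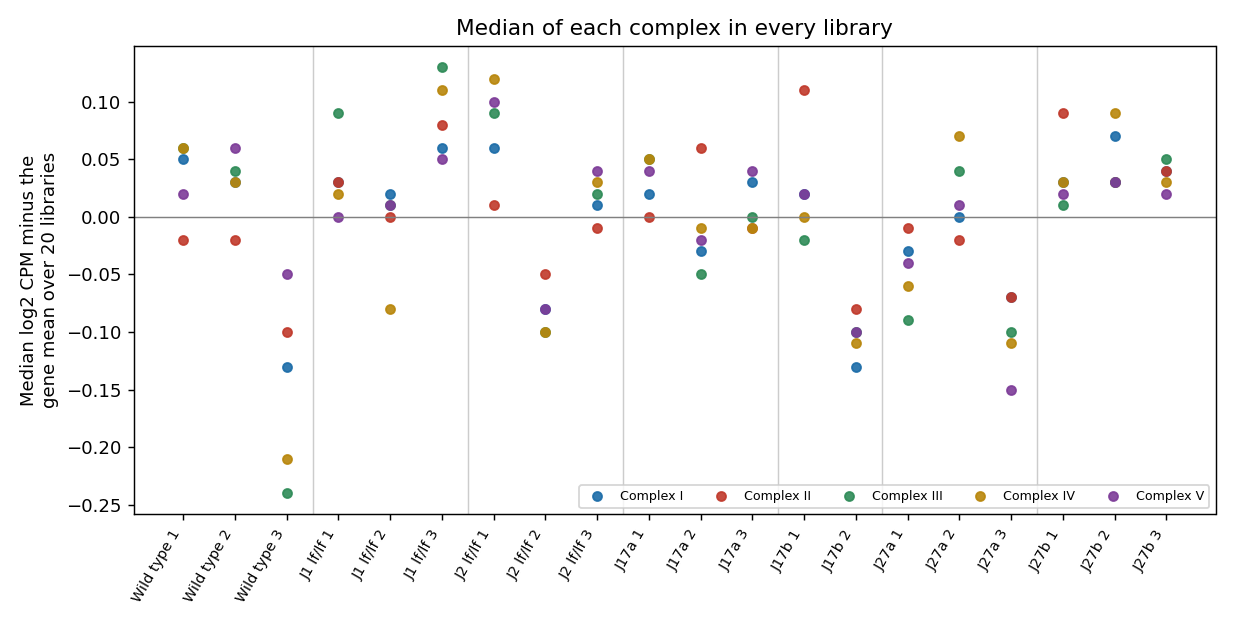
Median deviation of the members of each complex in each library, as log2 CPM minus the gene's mean over 20 libraries, with colours for the complexes and libraries grouped by genotype. Wild type replicate 3 lies lowest in complexes III and IV, at -0.24 and -0.21, and no complex of any library departs from 0 by more than that.

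Wild type replicate 3 differed from the other 19 libraries member by member. The spread of its members' deviations (SD of log2 CPM minus the gene's mean) was 0.42, against 0.11 to 0.25 in the others, with a median deviation of -0.13. It was the lowest of all libraries for 37 members and the highest for 14, together 55.4% of the 92, where 39.2% of all genes had an extreme in this library. Atp5k, the e subunit of the ATP synthase membrane part, was at 3.33 CPM there and between 6.17 and 18.1 CPM in the other libraries. Cox6b1, which bridges the monomers of complex IV, was at 62.5 CPM against the Wild type values of 112 and 113 CPM replicates 1 and 2. Uqcr11, a small complex III subunit, was at 15.8 CPM against 41.8 and 44.1 CPM, and Atp5e, the epsilon subunit of F1, at 23.1 CPM against 57.6 and 57.2 CPM. Uqcrb, the subunit next to the ubiquinone site of complex III, went the other way at 70 CPM against 46 and 47.1 CPM. So did Ndufaf4, a complex I assembly factor, at 45.9 CPM against 30.4 and 25.8 CPM.

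The members of this library were also compared by transcript length and base composition. Member transcripts are short, with a median of 711 bases against 2264 bases for all genes with a GENCODE transcript (91 members and 14681 genes). The 30 members with the shortest transcripts had a median deviation of -0.26 in Wild type replicate 3 and -0.18 to 0.16 in the others, and the 30 with the longest -0.04 and -0.07 to 0.05. Over 14681 genes of that library, deviation and GC content had a rank correlation of -0.61, against -0.39 to 0.36 in each of the others, as a description across genes, which are not independent. Over the 91 members it was -0.35, inside the range of the others (-0.47 to 0.41). The rank correlation with length was 0.30 over the members (others -0.50 to 0.38) and 0.12 over all genes (others -0.21 to 0.17), inside the range of the others as well. Cytosolic ribosomal proteins, also short transcripts, had a median deviation of -0.13 there. Among lists not chosen for length, glycolysis genes were at -0.17, and glutamatergic neuron and parvalbumin interneuron markers each at -0.13. Genes of the tricarboxylic acid cycle were at 0.12 and regulators of mitochondrial biogenesis at 0.14. What part transcript length and GC content had in the departures was not tested.

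**Figure D3:**
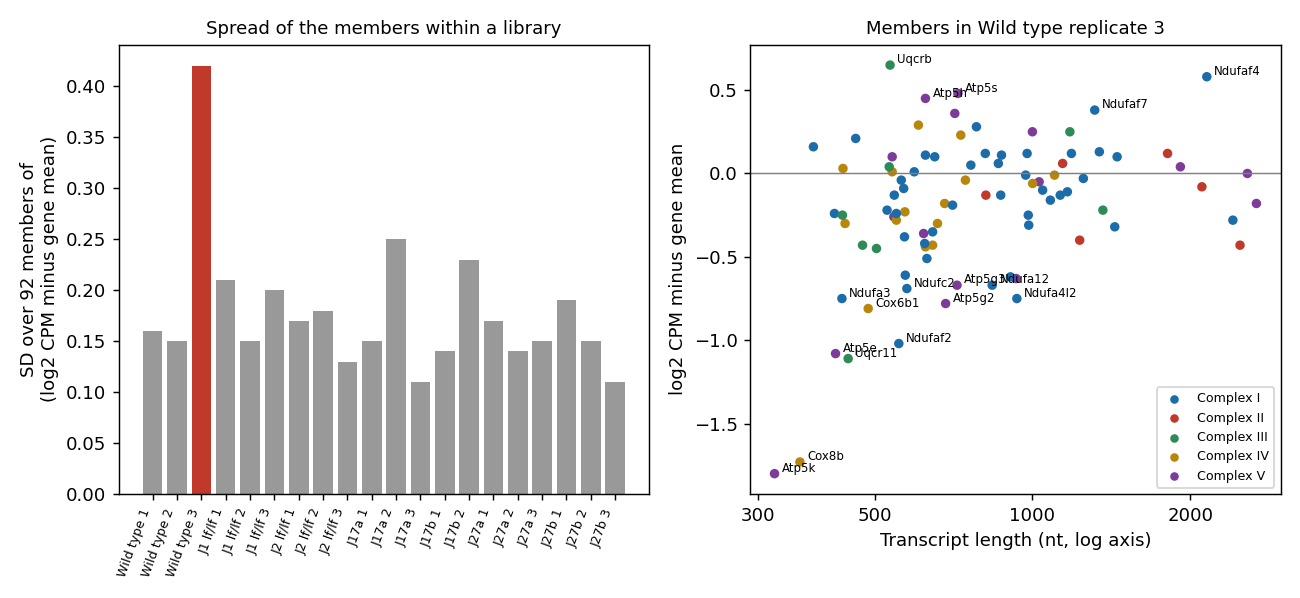
Left, the SD of the 92 members' deviations (log2 CPM minus the gene's mean over 20 libraries) in each library, with Wild type replicate 3 in red at 0.42. Right, the deviation of each member in that library against its transcript length in nt on a log axis, coloured by complex. Atp5k (-1.80), Cox8b (-1.73), Uqcr11 (-1.11) and Atp5e (-1.08) lie lowest, all with short transcripts. Other short transcripts lie above 0, among them the highest member, Uqcrb, at 0.65 (535 nt). Members with long transcripts also scatter to both sides of 0, from Ndufaf4 at 0.58 to Sdhaf1 at -0.43.

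No member differed between genotypes by the test over all genes. Each line was compared with Wild type to ask whether the chain's transcripts differ in that line. edgeR's quasi-likelihood test with Benjamini-Hochberg adjustment over 16063 genes called 0 of 92 members at an adjusted p under 0.05 in each of the 8 comparisons made, and 0 in a test over all 7 groups. All the comparisons with Wild type share its 3 libraries. DESeq2 and limma also called 0 members in each. In the test over 7 groups 0 members had an unadjusted p under 0.05, where 6.71% of all genes did and 0.0872% were called. The smallest was that of Uqcrb (edgeR adjusted p = 0.738).

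For J1 lf/lf against Wild type 0 members and 0.0125% of all genes were called, and 1 member had an unadjusted p under 0.05 (5.04% of all genes). For J2 lf/lf these were 0 members, 0.00623% of all genes, 5 members and 7.94%. For J17a they were 0 members, 0% of all genes, 5 members and 4.39%. For J17b they were 0 members, 0.0249% of all genes, 2 members and 5.85%. For J27a they were 0 members, 0% of all genes, 7 members and 4.84%. For J27b they were 0 members, 0% of all genes, 7 members and 6.94%. The median log2 fold change of the members was 0.05 in J1 lf/lf, 0.04 in J2 lf/lf, 0.02 in J17a, -0.04 in J17b, -0.02 in J27a and 0.06 in J27b, and that of all genes lay between -0.0045 and 0.0042. Positive values were found for 66, 57, 54, 30, 37 and 62 of the 92 members in the same order. Without Wild type replicate 3 the positive members were 48, 37, 38, 27, 17 and 44, the medians 0.01, -0.02, -0.02, -0.07, -0.07 and 0.00, and 0 members were called in each. In J2 lf/lf and J17a most members were above Wild type with that library and below it without. In J27b most were above with it, and without it the members were near evenly split (44 of 92 positive).

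The precision of these comparisons was high for most members. The 95% interval of the fold change lay within 1.5-fold of no change for 81, 80, 79, 77, 81 and 77 of the 92 members in the 6 lines. It did so in every one of the 8 comparisons for 72 members. The members whose interval reached past 1.5-fold in all 8 were Atp5e, Atp5k, Uqcr11, Cox4i2, Cox6b2, Cox7a1, Cox8b and Ndufa4l2, that is 5 tissue-restricted forms of low level and 3 subunits with short transcripts. For these 8 members the intervals include differences of that size.

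**Figure D4:**
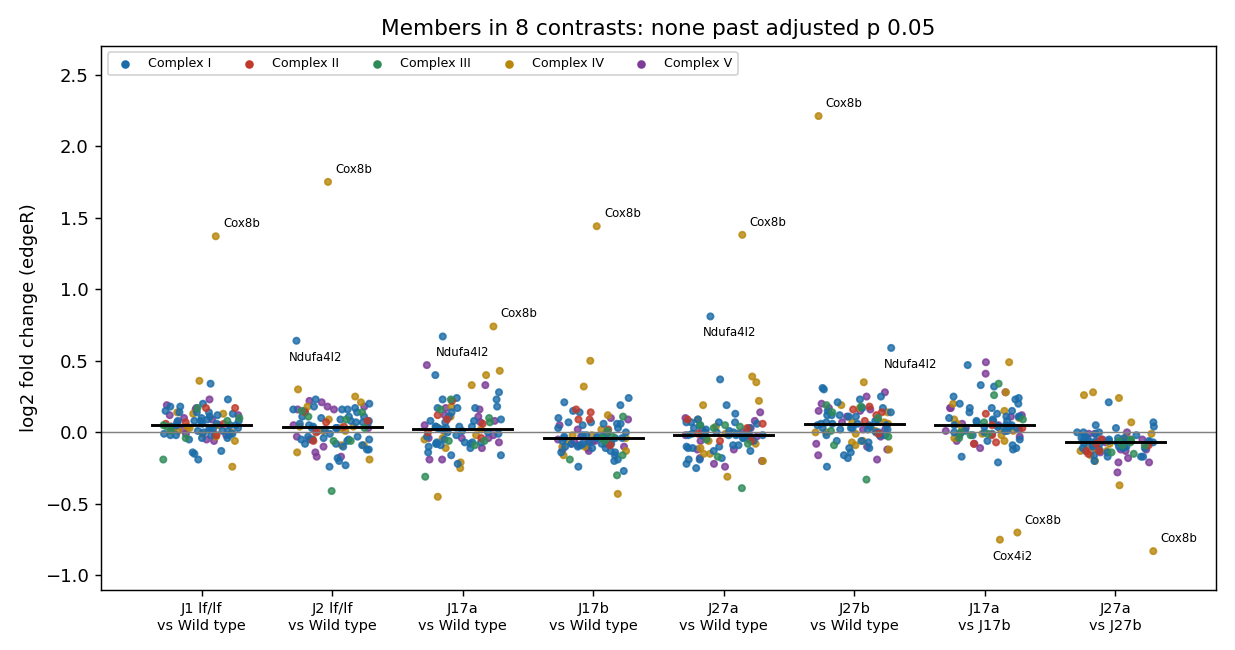
Log2 fold change of the 92 tested members in each of the 8 comparisons, each point a member coloured by complex, with horizontal bars at the median. Medians lie between -0.07 and 0.06, and the widest values belong to the low tissue-restricted forms Cox8b, Ndufa4l2 and Cox4i2, none of which passed the test.

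In complex III Uqcrb had the smallest p of all members in J2 lf/lf and J27a. Its log2 fold change was -0.41 ± 0.13 (SE) in J2 lf/lf (edgeR adjusted p = 0.59) and -0.39 in J27a (edgeR adjusted p = 0.959). The values were -0.19 in J1 lf/lf, -0.31 in J17a, -0.30 in J17b and -0.33 in J27b. The 17 libraries of the lines ran from 37.9 to 55.5 CPM, and it is the 70 CPM of Wild type replicate 3 that stands out from Wild type replicates 1 and 2 (46 and 47.1 CPM). Without that library the value was -0.19 in J2 lf/lf (edgeR adjusted p = 0.999), -0.17 in J27a and 0.03 in J1 lf/lf. The other 7 complex III subunits lay between -0.19 and 0.23 in the 6 lines.

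In complex II the succinate dehydrogenase anchor Sdhc was the only member with an unadjusted p under 0.05 in J1 lf/lf. Its CPM was 80.1, 83.2 and 78.5 in Wild type and 90.7, 88.6 and 92.4 in J1 lf/lf, so the groups did not overlap. The log2 fold change was 0.17 ± 0.06 (SE; edgeR adjusted p = 0.821), and 0.15 without Wild type replicate 3. In J1 lf/lf 2 members had no overlap in the higher direction and 0 in the lower, where 4.33% and 3.97% of all genes did. Sdhc was also without overlap in J17b (92.1 and 85.1 CPM; log2 fold change 0.14) and in J27b (92.1, 87.8 and 87 CPM; 0.14). Sdhb, the iron-sulphur subunit, stood at 103, 102 and 110 CPM in J27b against the Wild type values of 90.9, 89.9 and 101 CPM (log2 fold change 0.16 ± 0.07 SE, edgeR adjusted p = 0.713). The median of the 6 complex II members was 0.13 in J27b and 0.09 in J17b, the highest of the 5 complexes in both, with 0 members called.

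In complex IV Cox6b1 had a log2 fold change of 0.40 ± 0.15 (SE) in J17a (edgeR adjusted p = 0.993) and 0.35 ± 0.15 in J27b (edgeR adjusted p = 0.717). It stood at 121, 136 and 122 CPM in J17a and 117, 125 and 123 CPM in J27b, all above the 112, 113 and 62.5 CPM of Wild type. Without Wild type replicate 3 the values were 0.17 and 0.12. Cox8b had the largest fold change of any member, 2.21 ± 0.75 (SE) in J27b (edgeR adjusted p = 0.703), on the few counts given above, and 1.90 without Wild type replicate 3. Cox6a2 had values of -0.45 in J17a and -0.43 in J17b, with overlap between the groups, and -0.60 and -0.58 without Wild type replicate 3. Cox8a, the most abundant member, lay between -0.12 and 0.01 in the 6 lines. With Wild type replicate 3 left out, Cox8a had the smallest unadjusted p of any member, at a log2 fold change of -0.26 ± 0.06 (SE) in J27b (edgeR adjusted p = 0.288). Without that library the smallest adjusted p was that of Atp5d, the delta subunit of F1, and Ndufb3 in J17b (edgeR adjusted p = 0.24), at log2 fold changes of -0.27 and -0.32. The CPM of Cox8a was 239, 240 and 233 in J27b against 280 and 289 in Wild type replicates 1 and 2 and 207 in replicate 3.

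Among the complex I members Ndufab1, the mitochondrial acyl carrier protein, was without overlap in J2 lf/lf. It stood at 57, 56 and 50.5 CPM against the Wild type values of 48.8, 49.5 and 40.8 CPM (log2 fold change 0.23 ± 0.08 SE, edgeR adjusted p = 0.618). Without Wild type replicate 3 the value was 0.15. In J2 lf/lf 1 member had no overlap in the higher direction and 2 in the lower (5.4% and 5.04% of all genes). In J17b the smallest p-values were those of 2 accessory subunits of complex I. Ndufb3 stood at 32.6 and 26.2 CPM against 37.4, 36 and 33.2 CPM (log2 fold change -0.27, edgeR adjusted p = 0.798), and Ndufa5 at 48.2 and 43.3 CPM against 50.9, 54.8 and 50.4 CPM (-0.19, edgeR adjusted p = 0.848). In J17b 7 members lay without overlap higher and 6 lower, against 8.57% and 6.86% of all genes. Ndufa12, an accessory subunit of the matrix arm, had a value of 0.31 in J27b (edgeR adjusted p = 0.717) and 0.11 without Wild type replicate 3. The assembly factor Ndufaf6 had values of 0.23 in J1 lf/lf and 0.37 in J27a on 2.56 to 5.69 CPM per library. Ndufaf7, a complex I assembly factor, had values of -0.24 in J2 lf/lf, -0.25 in J27a and -0.24 in J27b, with overlap in each, and -0.12 in each of the 3 without Wild type replicate 3. Ndufa4l2 stood at 1.19, 1.74 and 1.07 CPM in Wild type and 2.4, 2.27 and 2.4 CPM in J27a (log2 fold change 0.81 ± 0.29 SE, edgeR adjusted p = 0.959).

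In the ATP synthase the smallest p against Wild type was that of Atp5j2. It encodes the f subunit of the membrane part and had a value of -0.20 ± 0.07 (SE) in J27a (edgeR adjusted p = 0.959), with 86.3, 93.1 and 79.7 CPM against the Wild type values of 92.5, 105 and 100 CPM. Atp5o, the oligomycin-sensitivity subunit of the stalk, lay between 0.05 and 0.17 in the 6 lines, and between -0.06 and 0.06 without Wild type replicate 3. Atp5k had a value of 0.47 ± 0.42 (SE) in J17a, with an error nearly as large as the value, and of 0.05 without Wild type replicate 3. In J17a 4 members were without overlap higher and 7 lower (3.47% and 3.06% of all genes), in J27a 2 and 5 (4.16% and 3.85%), and in J27b 13 and 3 (6.01% and 5.9%).

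**Figure D5:**
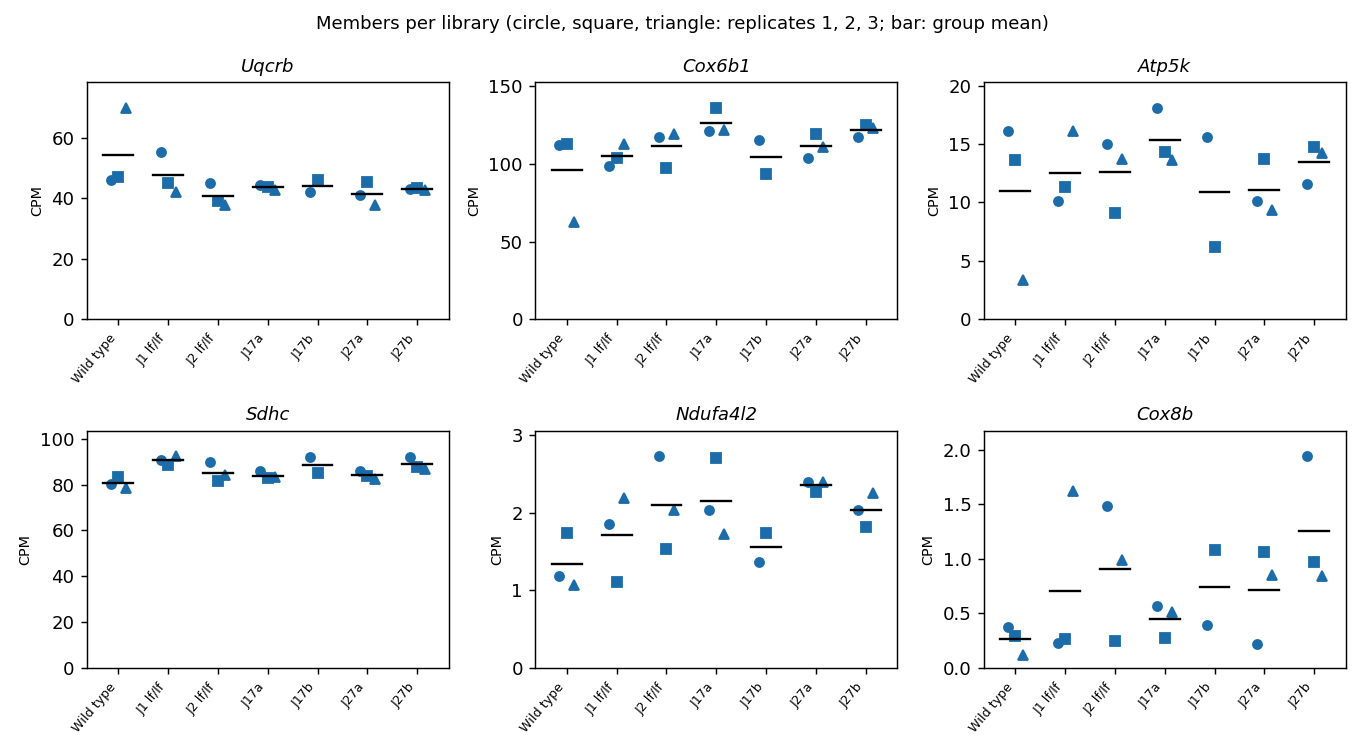
CPM of Uqcrb, Cox6b1, Atp5k, Sdhc, Ndufa4l2 and Cox8b in every library, grouped by genotype, with marker shapes for the replicates, a bar at each group mean and axes starting at 0. The third Wild type library departs from its group in Uqcrb (70 CPM), Cox6b1 (62.5 CPM) and Atp5k (3.33 CPM), while Sdhc lies between 78.5 and 92.4 CPM throughout.

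J17a was compared with J17b to set the lines named for the 2 exon forms of JNK1 side by side. Of the members, 0 were called by edgeR's quasi-likelihood test, as of all genes (0%), and 3 had an unadjusted p under 0.05 (5.9% of all genes). The accessory subunit Ndufb10 had a log2 fold change of 0.32 ± 0.13 (SE; edgeR adjusted p = 0.798), with 76.1, 78.8 and 72.5 CPM in J17a and 68 and 53.1 CPM in J17b. Atp5f1 was at 181, 198 and 185 CPM against 180 and 155 CPM (0.17, edgeR adjusted p = 0.817), and Ndufa11 at 67, 65.9 and 70.8 CPM against 62.8 and 57.6 CPM (0.17, edgeR adjusted p = 0.829). In all 3 the lower J17b value was that of replicate 2, whose members had a median deviation of -0.12 and 54698 CPM of Rn45s. The median member value was 0.05 with 62 of 92 positive, 0.12 without J17b replicate 1 and -0.01 without J17b replicate 2. Without overlap were 9 members in the higher direction and 5 in the lower, against 9.85% and 9.97% of all genes.

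J27a was compared with J27b as the corresponding pair for JNK2. The members leaned to lower values in J27a, by small amounts. edgeR's quasi-likelihood test called 0 members and 0% of all genes, and 4 members had an unadjusted p under 0.05 (5.79% of all genes). The log2 fold change was negative for 83 of 92 members, and its median was -0.07, against -0.0012 over all genes, of which 49.7% were positive. Every tested member of complex II (6), complex III (8) and complex V (17) had a value at or below 0, as did 40 of 45 in complex I and 12 of 16 in complex IV. The complex medians were -0.07 in I, -0.11 in II, -0.08 in III, -0.08 in IV and -0.07 in V. Library by library the median deviation of the members was -0.04, 0.01 and -0.08 in J27a and 0.03, 0.05 and 0.04 in J27b. The groups did not overlap, and their nearest libraries, at 0.01 and 0.03, lay closer together than the pooled SD of library medians within groups (0.063).

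The member with the smallest p in that pair was Ndufs3, a core subunit of complex I, at 62.2, 65.6 and 61.6 CPM in J27a and 69.9, 73.6 and 73.8 CPM in J27b (log2 fold change -0.20 ± 0.07 SE, edgeR adjusted p = 0.772). Ndufa10, an accessory subunit, was at 97.1, 98.2 and 96.9 CPM against 109, 111 and 108 CPM (-0.17, edgeR adjusted p = 0.792). Ndufa11 was at 58.1, 64.8 and 59.8 CPM against 66.4, 70.4 and 69.4 CPM (-0.17, edgeR adjusted p = 0.804). Without overlap were 24 members in the lower direction and 1 in the higher, against 8.82% and 8.44% of all genes. The median stayed between -0.10 and -0.06 when any 1 library was left out. Both groups lie among the libraries numbered above 10, with Rn45s at 20169 to 30554 CPM in J27a and 18173 to 20550 CPM in J27b. Summed choroid plexus markers were 436 to 472 CPM in J27a and 477 to 1488 CPM in J27b, and summed oligodendrocyte markers 5158 to 6346 and 6623 to 6994 CPM. Neuronal markers were 7036 to 7377 and 7005 to 7104 CPM. Ependymal markers were 16.3 to 18.5 CPM in J27a and 22 to 23.2 CPM in J27b, without overlap, and 0 of 6 had a positive log2 fold change (median -0.34). Cerebellar markers were 969 to 1885 and 887 to 1058 CPM, with 8 of 8 positive (median 0.64), and anterior pituitary markers 1.44 to 669 and 1.34 to 2.58 CPM, with 8 of 8 positive (median 5.71). Skeletal muscle markers were 9.83 to 30.3 and 6.23 to 9.42 CPM, with 7 of 8 positive (median 2.31), and heart muscle markers 8.33 to 10.2 and 5.84 to 6.74 CPM. Of 6 genes of stress and RNA quality, 5 were positive (median 0.31). The part of these in the members' values was not tested.

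The difference between 7a and 7b was itself compared between the JNK1 and JNK2 lines, a comparison added after the values of both pairs were seen. By edgeR's quasi-likelihood test 0 members and 1 of all 16063 genes were called, and 6 members had an unadjusted p under 0.05 (6.7% of all genes). The smallest p was that of Ndufa11, whose 7a minus 7b value was 0.17 in the JNK1 lines and -0.17 in the JNK2 lines, a difference of 0.35 (edgeR adjusted p = 0.503). The median member difference was 0.14, with 77 of 92 positive. It was not computed with libraries left out. The JNK1 part of it rests on few libraries, since the median member value of J17a against J17b (0.05) ran from -0.01 to 0.12 with libraries left out in turn. That of J27a against J27b ran from -0.10 to -0.06.

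Other genes of mitochondrial energy metabolism were equally without calls. In 9 lists (subunits outside the prefixes, electron carriers and coenzyme Q synthesis, assembly factors outside the prefixes, regulators of mitochondrial biogenesis, the tricarboxylic acid cycle, glycolysis, mitochondrial and cytosolic ribosomes, and mitochondrial protein import) 294 genes were tested. edgeR called 0 of them in any of the 8 comparisons, and the list medians ran from -0.15 to 0.08. In J27a against J27b mitochondrial protein import genes had 3 of 22 positive values and a median of -0.07, the tricarboxylic acid cycle 3 of 20 and -0.07, mitochondrial ribosomal proteins 25 of 77 and -0.04, glycolysis 6 of 19 and -0.02, cytosolic ribosomal proteins 18 of 78 and -0.03, and regulators of biogenesis 12 of 20 and 0.02, beside 9 of 92 and -0.07 for the members. Subunits outside the prefixes were as abundant as the members: Usmg5, a small ATP synthase subunit, stood at 1604 ± 116 TPM and Cyc1, the cytochrome c1 of complex III, at 349 ± 28 TPM. Ppargc1a, the coactivator that drives mitochondrial biogenesis, stood at 25.8 ± 3.22 TPM, its partner Esrra at 63.3 ± 9.46 TPM, the NRF1 gene Nrf1 at 13.9 ± 1.29 TPM, the ETS-family factor gene Gabpa at 14.4 ± 1.61 TPM and Tfam, which packages and transcribes mitochondrial DNA, at 23.8 ± 1.98 TPM (SD, n = 20). The log2 fold changes of Ppargc1a ran from -0.23 to 0.05 and those of Tfam from -0.07 to 0.07 over the 8 comparisons, with smallest edgeR adjusted p-values of 0.624 and 0.809.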

How the data were processed

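Poly(A)-enriched libraries from mouse brain were sequenced with paired reads of 150 bp, per the labels' protocols. The authors deposited estimated counts per gene and TPM values, which come from RSEM after cutadapt on mm10, per the submitters' processing notes. Not given in the sources used here: versions, the gene annotation and the use of strand. Overlapping or antisense genes and near-identical copies are therefore uncertain. RSEM splits shared reads, and 4.11% of the estimated counts that the authors deposited were not whole. TPM values deposited by the authors served for levels, since they are per length. For some members with short transcripts the ranks in TPM and in CPM differ.

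Estimated counts were rounded and fitted for all 20 libraries together with edgeR 4.0.16 in R 4.3.3 (TMM factors 0.975 to 1.03, filterByExpr, robust quasi-likelihood fit). The filter left 16063 genes and 92 members, without Cox7b2 and Cox8c. Tests were two-sided, with Benjamini-Hochberg adjustment over all genes within a comparison and a threshold of 0.05, and were tried on simulated data. Members, gene lists and comparisons were chosen with earlier results of these data known. Named are the members with the highest and lowest TPM per complex, form pairs, and per comparison those with the smallest p and the highest and lowest fold change at a logCPM of at least 1. Members named for Wild type replicate 3, and Cox8a without it, were chosen after their values were seen. Alternatives were DESeq2 1.42.0, its size factors, limma 3.58.1 on log2(TPM + 1) and log2(TPM + 0.1), no filter, fewer groups in the fit, a replicate block, Rn45s left out, title number as a term, and libraries left out. No 2 libraries of a group agreed within sampling noise (lowest chi-square per degree of freedom 5.43).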

Additional observations from a re-analysis of the deposited data

How the results depend on the processing

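The count of 0 members called was the same in all 164 alternative results, each a comparison or the test over 7 groups under a single setting. The settings included DESeq2, limma, the replicate block (0 members called in each comparison) and every library left out. For the 3 libraries in which the members lay widest apart, the alternative was chosen after seeing the data. Same-numbered libraries correlated between -0.18 and 0.15 in their deviations, above 0.1 for every pair in 0 of 8 comparisons. The labels do not say whether the numbers pair the samples, and such low correlations cannot exclude a pairing. With 1 J17b library left, that library is assumed to vary like the other groups. The counts of all genes called varied more. They ranged from 2 to 212 in the test over 7 groups (14; 212 by DESeq2, 114 without Wild type replicate 3), 1 to 61 in J1 lf/lf (2), 1 to 9 in J2 lf/lf (1), 0 to 54 in J17b (4), and in J27a against J27b from 0 to 125 (0; 125 with only those groups in the fit). The median member log2 fold change with libraries left out in turn ran from -0.13 to 0.04 in J17b against Wild type and from -0.01 to 0.12 in J17a against J17b. In CPM, which are not per length, the complexes I to V held 27.3%, 7.88%, 9.01%, 18.3% and 37.6% of the members' sum.

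Of the values of single members, 27 changed sign and 1044 did not. Without Wild type replicate 3 the log2 fold changes in J1 lf/lf were -0.09 for Atp5e, 0.00 for Ndufa12, 0.03 for Uqcrb and 0.08 for Ndufaf4, in J2 lf/lf -0.02 for Atp5g2, -0.02 for Cox6b1 and 0.04 for Ndufaf4, and in J27a -0.01 for Cox6b1 and Ndufa12. Without the 3 wide libraries they were -0.08, 0.00, 0.03 and 0.09, then -0.02, -0.01 and 0.04, then -0.01 and -0.01, and 0.03 for Ndufs7 in J17a against J17b. Without the 3 libraries with the highest pituitary markers Cox8b was at -0.01 in J1 lf/lf and Ndufaf6 at -0.03 in J27a against J27b. Single libraries reversed Cox8b in J1 lf/lf (-0.09 without its replicate 3), Ndufa3 in J17b (-0.07 without replicate 1), Atp5k in J17a against J17b (-0.02 without J17b replicate 2), and in J27a against J27b Ndufaf6 (-0.03 without J27a replicate 3 or J27b replicate 2) and Ndufs4 (-0.01 without J27b replicate 1). Over all libraries left out in turn, the values in J1 lf/lf ran up to 1.78 for Cox8b, 0.42 for Atp5e and 0.36 for Ndufa12 and down to -0.31 for Uqcrb and -0.35 for Ndufaf4. They ran up to 0.41 for Atp5g2 and 0.35 for Cox6b1 and down to -0.39 for Ndufaf4 in J2 lf/lf, and up to 0.36 for Cox6b1 and 0.35 for Ndufa12 in J27a, 0.49 for Ndufa3 in J17b and 1.32 for Atp5k in J17a against J17b. The causes were not tested. Depth limits the tissue-restricted forms most, since Cox8b rests on 3 to 59 counts.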
